A study of Mus musculus with 8 samples.

Results

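Translation initiation and elongation factors are the proteins that load ribosomes onto mRNA and move them along it. Transcripts of 57 genes that encode them were compared between hearts of 4 wild-type (WT) mice and 4 TAZG197V mice. The genes were chosen by name: 79 mouse symbols began with Eif or Eef and a number, and 18 of these were left out. Those left out were pseudogene copies, the eIF2 alpha subunit and its kinases, and the eIF4E-binding proteins. Of the remaining 61 genes, 57 reached a mean of 50 counts over the 8 libraries, out of 55471 gene rows in all, and all 57 were protein coding. The lowest included were Eef1akmt4, with a mean of 82.9 counts, and Eif5a2, with 99.4. The 4 that did not reach the mean were Eif3j2 with 9.63 counts, Eef1akmt3 with 3.50, the non-coding Eif2c5 with 0.125, and Eif4e1b, which had no count in any library.

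The TAZG197V mice carry the glycine-to-valine mutation that gives the line its name, in Taz on the X chromosome. Taz encodes Tafazzin, the mitochondrial enzyme that remodels the membrane lipid cardiolipin and that is mutated in Barth syndrome. That disorder affects several organ systems, and cardiomyopathy is its major clinical feature. The line was made in C57BL/6N zygotes with Cas9 and an oligonucleotide template and was crossed to C57BL/6J, and neither group was treated. Males with the mutation are hemizygous, and the Y-linked factor gene Eif2s3y was read in all 8 hearts. The animals were 14 weeks old, and RNA came from a small piece of heart of each, so a piece and not a dissected chamber is the unit. Taz itself was at 60.9 ± 2.36 CPM, counts scaled to library size with TMM factors, in WT and at 47.3 ± 2.6 CPM in TAZG197V hearts (SD, n = 4 each). Gene counts carry no information on the base at the mutated codon.

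Translation begins when a small ribosomal subunit, held by eIF1, eIF1A, eIF3 and eIF5, receives the initiator tRNA from eIF2 and is brought to the capped end of an mRNA by eIF4E, eIF4G and eIF4A. The subunit scans to a start codon, the large subunit joins, and eEF1A and eEF2 then deliver each aminoacyl-tRNA and move the ribosome forward. Several of these mRNAs, together with those of ribosomal proteins, start with a 5′ terminal oligopyrimidine (TOP) run through which the mTOR kinase controls their own translation. Heart and skeletal muscle are known for a change of eEF1A paralogue during growth, from Eef1a1 to Eef1a2.

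Library totals ranged from 23055689 to 36301031 counts. Each genotype had its numbers 1 and 2 on lane 7 of the flow cell and its numbers 3 and 4 on lane 8. The sample labels give no lane, and it was read from the names under which the counts were deposited. Both number 4 libraries stood apart. Haemoglobin genes took 5.00% of the counts of WT 4 and at most 0.0960% of those of any other library. Summed, 6 brain markers reached 115 CPM in WT 4 and 289.9 CPM in TAZG197V 4, against 9.07 to 12.3 CPM in the other 6. Heart muscle was followed with 5 markers, Myh6, Tnnt2, Myl2, Actc1 and Tnni3, none of them at 0 in all 8 libraries. Their summed level lay between 51653 and 58247 CPM in WT and between 43989 and 47512 CPM in TAZG197V hearts, with no overlap. The summed level of 4 fibroblast markers was 827 to 1336 CPM in WT and 566 to 769.9 CPM in TAZG197V hearts, also with no overlap. WT 2 stood apart in other markers. Its summed level of 4 atrial markers was 1057 CPM, against 3.79 to 130.0 CPM in the other 7, and that of 4 adipocyte markers was 39.3 CPM, against 0.323 to 5.76 CPM. The part of these differences in the results was not tested. In pieces of tissue, a change in the number of cells of a type and a change in RNA per cell cannot be told apart.

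Most translation factor transcripts were higher in TAZG197V hearts. Of the 57, 42 were called higher, 2 were called lower, namely the cap-binding Eif4e and Eif4e3, and 13 were not called. A gene was called at an edgeR adjusted p under 0.05 and a log2 fold change beyond 0.20 either way, with a mean scaled count of at least 50. Among all 12357 genes tested with such a mean count, 22.5% were called higher and 18.4% lower. The median log2 fold change, TAZG197V over WT, was 0.39 for the factors and 0.0028 for those 12357 genes. All 4 TAZG197V hearts lay above all 4 WT hearts for 42 of the factors, where 21.6% of the 12357 genes did so, and below them for 2, where 15.1% did. The 42 were those called higher other than Eif5a2, with Eif4e2 in addition, and the 2 were Eif4e and Eif4e3. Levels below are means ± SD over the 4 hearts of a genotype, and log2 fold changes are given ± SE where an error is shown. Without both number 4 libraries, 38 were called higher and 2 lower, and 37 of the 38 were among the 42. Without WT 2, 37 were called higher and 2 lower. At a fold change beyond 1.5, 16 factors were called higher and 1 lower, where 8.08% and 6.84% of the 12357 genes were. Within each lane, every one of the 44 called factors had the same direction as in the comparison of all 8 libraries.

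**Figure D1:**
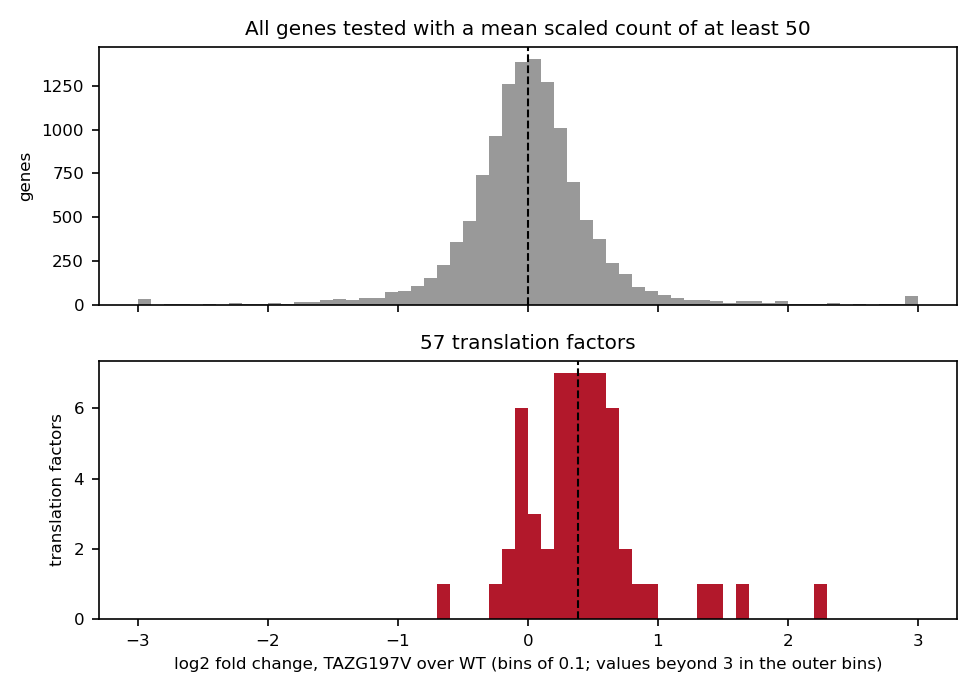
Histograms of the log2 fold change, TAZG197V over WT, for the 12357 tested genes with a mean scaled count of at least 50 (top) and for the 57 translation factors (bottom), in bins of 0.1, with a dashed line at each median. The bulk of the factors lies to the right of 0, with a median of 0.39 against 0.0028, and 1 factor, Eif4e, lies left of the others.

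The factors together took 0.762% ± 0.0181 of all counts in WT and 1.10% ± 0.0102 in TAZG197V hearts (SD, n = 4 each). Summed, they came to 7791 ± 181 CPM for WT and 10793 ± 153 CPM for TAZG197V hearts, a ratio of 1.39. Eef2 and Eef1a1 made up a large share of this gain, and without them the sums were 6255 ± 193 and 7797 ± 89.2 CPM, a ratio of 1.25. Of 11 factors with established TOP mRNAs, 9 were called higher and 0 lower, and their median log2 fold change was 0.50. By role, the share called higher ran from 3 of 3 for eIF5A and eIF6 and 12 of 13 for eIF3 subunits to 4 of 12 for the cap-binding eIF4 group, which also held both factors called lower. These shares were not tested against each other. For every role group, the shares of all 12357 genes to set beside them are 22.5% called higher and 18.4% called lower.

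**Figure D2:**
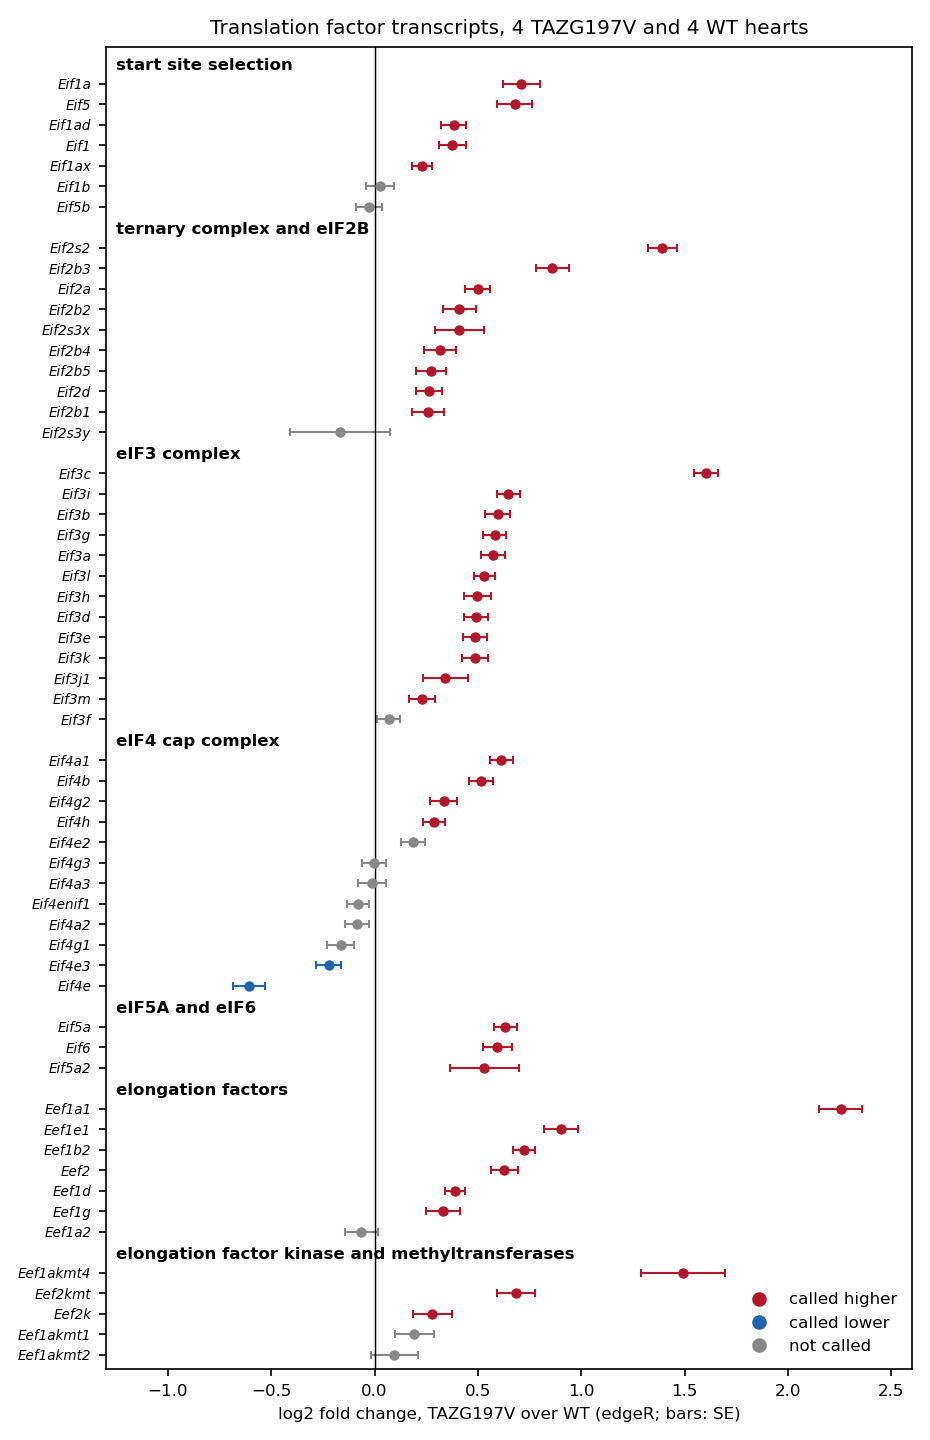
Log2 fold change, TAZG197V over WT (horizontal axis, edgeR; bars are the SE), for each of the 57 factors grouped by role, with 42 called higher in red, 2 called lower in blue and 13 not called in grey. Eef1a1, Eif3c, Eef1akmt4 and Eif2s2 lie farthest to the right, and Eif4e farthest to the left.

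The promoters of the factors were searched for the E-box CACGTG, the site of Myc, Max and related factors, which reads the same on both strands. RefSeq promoter entries on GRCm38.p6, each of 300 bases that lie mostly before a gene's start, were matched for 46 of the 57 factors by symbol. The others, named only, were Eef1akmt1, Eef1d, Eef1g, Eif1a, Eif2b3, Eif3e, Eif3h, Eif3i, Eif4e3, Eif4g2 and Eif6. An E-box was present for 13 of the 46 factors (28.3%), against 8.09% of all genes with an entry. It was in 15 of their 60 promoters (25.0%), against 7.15% of all 32851 promoters. These backgrounds were not limited to genes read in these hearts and were not matched for level. The gaps were not tested. Of the 13, 9 were called higher, 1 lower and 3 not called, beside 42, 2 and 13 of all 57 factors. Those 57 include the factors with no entry, among them Eif4e3, called lower, so the 2 sets of counts are not like for like. The 8-letter pattern TGATGNAA, a core of the amino acid response element, was searched on both strands and was found for 2 of the 46 (4.35%), Eef2k and Eif2s3x, against 4.51% of all genes with an entry. A match is a run of letters and does not show that a factor binds there. To show the matches of factors with opposite calls side by side, 4 are printed with 17 bases on each side and with the E-box in capitals. They come from Eef2 (chr10:81176571-81176610, plus strand), Eif4a1 (chr11:69672590-69672629, minus strand) and Eif3k (chr7:28981910-28981949, minus strand), which were called higher, and from Eif4e (chr3:138527187-138527226, plus strand), which was called lower.
Eef2: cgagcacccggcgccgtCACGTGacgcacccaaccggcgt
Eif4a1: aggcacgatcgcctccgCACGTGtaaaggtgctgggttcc
Eif3k: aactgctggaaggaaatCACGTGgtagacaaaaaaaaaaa
Eif4e: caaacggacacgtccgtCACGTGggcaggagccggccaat
In Eef2, Eif4a1, Eif3k and Eif4e these E-boxes began 43, 189, 44 and 64 bases before the RefSeq start of the entry used. RefSeq starts can differ from the GENCODE gene ends given below, and the Eif4e E-box lies inside the GENCODE span of Eif4e.

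Start-site selection is the task of eIF1 and eIF1A, which keep the scanning subunit open, of eIF5, which triggers GTP hydrolysis by eIF2, and of eIF5B, which joins the large subunit. Of the 7 genes in this group, 5 were called higher and 0 lower, and the median log2 fold change was 0.38. Eif5 was at 141, 139, 158 and 183 CPM in WT 1 to WT 4 and at 256, 230.1, 281 and 248 CPM in TAZG197V 1 to TAZG197V 4. The groups did not overlap, the highest WT heart was WT 4, and the log2 fold change was 0.68 ± 0.083 (SE, edgeR adjusted p = 0.000511). Eif1a, an autosomal eIF1A gene, rose from 17.7 ± 2.7 to 28.1 ± 1.61 CPM (SD, n = 4 each), with a log2 fold change of 0.71. Its X-linked paralogue Eif1ax was more abundant and rose less, from 84.4 ± 2.61 to 98.5 ± 5.25 CPM. The log2 fold change of Eif1ax was 0.23, and its adjusted p was 0.03 without both number 4 libraries, where its log2 fold change was under 0.20. Eif1 rose from 102 ± 3.86 to 132 ± 8.81 CPM and Eif1ad, which encodes a protein with an eIF1A-like domain, from 23.2 ± 2.16 to 30.3 ± 3.07 CPM, with log2 fold changes of 0.38 and 0.38. Eif1b, the paralogue of Eif1, was at 34.2 ± 1.03 and 35 ± 3.16 CPM and was not called. Eif5b was not called either, at 139.9 ± 6.2 CPM in WT and 137 ± 8.22 CPM in TAZG197V hearts, and both groups of 4 overlapped.

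eIF2 binds GTP and the initiator tRNA, and eIF2B, a complex of 5 subunits, reloads it with GTP. In this group, 9 of 10 genes were called higher and 0 lower, and the median log2 fold change was 0.36. Eif2s2, the eIF2 beta subunit (chromosome 2, 154871410 to 154892935, minus strand, mm10), had the largest change in the group. It was at 31.9, 32.7, 35.6 and 27.8 CPM in the 4 WT hearts and at 82.2, 88.8, 82.2 and 79.8 CPM in the 4 TAZG197V hearts. Every TAZG197V heart was more than 2-fold above every WT heart, and the log2 fold change was 1.39 ± 0.07 (SE, edgeR adjusted p = 6.33e-06). The gamma subunit has an X-linked and a Y-linked gene. Eif2s3x was low, at 7, 5.47, 5.63 and 7.05 CPM in WT and 8.61, 7.42, 9.16 and 8.8 CPM in TAZG197V hearts, and its log2 fold change was 0.41 ± 0.119 (adjusted p = 0.0268, edgeR). Of the 50-base windows of Eif2s3x, 34.6% were also found in another gene, so its counts are uncertain. Eif2s3y was the more abundant of the pair and was not called, with 54.6, 57.8, 71 and 67.9 CPM in WT and 32.5, 48.2, 76.8 and 71.4 CPM in TAZG197V hearts. Its TAZG197V values were low in TAZG197V 1 and 2 and high in TAZG197V 3 and 4, and they spanned the whole WT range.

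All 5 subunits of eIF2B were called higher. Eif2b3, the gamma subunit and part of the catalytic core, was at 13, 12.9, 12.4 and 9.91 CPM in WT and at 22.2, 23.8, 20.4 and 19.4 CPM in TAZG197V hearts. Its groups did not overlap, and its log2 fold change was 0.86 ± 0.08 (SE, edgeR adjusted p = 0.000133). Eif2b5, the catalytic epsilon subunit and the most abundant of the complex, rose from 62.4 ± 5.37 to 75.6 ± 3.08 CPM, by 0.27 on the log2 scale. The regulatory subunits Eif2b1, Eif2b2 and Eif2b4 changed by 0.26, 0.41 and 0.32 on the log2 scale, from 24.2 to 29.1, from 22.8 to 30.2 and from 40.8 to 50.7 CPM. The call of Eif2b1 was made in 10 of 17 other fits. Eif2a and Eif2d encode factors that can bring initiator tRNA to the ribosome apart from eIF2. Eif2a rose from 45.9 ± 3.13 to 64.3 ± 1.43 CPM and Eif2d from 32.6 ± 2.03 to 39.2 ± 3.5 CPM, with log2 fold changes of 0.50 and 0.26.

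eIF3 is the largest initiation factor, a ring of subunits on the small ribosomal subunit that holds the other factors in place. Of its 13 genes, 12 were called higher and 0 lower, and the median log2 fold change was 0.50. Eif3c, a core subunit (chromosome 7, 126546455 to 126566411, minus strand, mm10), stood above the rest. Its level was 156, 152, 151 and 143 CPM in WT 1 to WT 4 and 476, 446, 475 and 424 CPM in TAZG197V 1 to TAZG197V 4. The TAZG197V hearts lay about 3-fold higher, with a ratio of means of 3.03 and a log2 fold change of 1.603 ± 0.059 (SE, edgeR adjusted p = 1.04e-06). The other core subunits changed less. Eif3a, the eIF3 transcript with the most counts in WT hearts, was at 226, 231, 234 and 225 CPM in WT and 360.4, 331, 350.1 and 320.0 CPM in TAZG197V hearts, with no overlap and a log2 fold change of 0.57. Eif3b, which binds Eif3i and Eif3g, rose from 108 ± 3.74 to 164 ± 8.16 CPM, and these partners rose from 75.9 ± 4.66 to 119 ± 10.6 and from 50.1 ± 4.15 to 74.4 ± 5.36 CPM. The log2 fold changes of Eif3b, Eif3i and Eif3g were 0.60, 0.65 and 0.58.

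A set of 5 further eIF3 subunits changed by nearly equal amounts, with log2 fold changes of 0.53 for Eif3l, 0.50 for Eif3h, 0.49 for Eif3d, 0.49 for Eif3e and 0.49 for Eif3k. Eif3l rose from 77.9 ± 4.8 to 112 ± 3.29 CPM and Eif3e from 71.3 ± 6.02 to 98.3 ± 3.37 CPM. Eif3d, a subunit that can itself bind the cap of some mRNAs, rose from 34 ± 1.23 to 47.9 ± 2.55 CPM, but 43.3% of its exon bases overlap another gene. Eif3h rose from 102 ± 10.5 to 142 ± 6.82 CPM and Eif3k from 71.5 ± 2.06 to 100.0 ± 8.66 CPM. Eif3j1 and Eif3m had smaller changes, 0.34 ± 0.108 and 0.23 ± 0.062 (SE). Their adjusted p-values were 0.0361 and 0.0204 with edgeR, and without both number 4 libraries neither was called. For Eif3j1, 50.9% of the 50-base windows were found in other genes, so its level is uncertain. Eif3f was the exception, at 101, 95.3, 104 and 109 CPM in WT and 102, 112, 102 and 117 CPM in TAZG197V hearts. The 2 groups overlapped, and its log2 fold change was 0.07 ± 0.056 (edgeR adjusted p = 0.361). The difference between Eif3f and the other subunits was not tested.

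**Figure D3:**
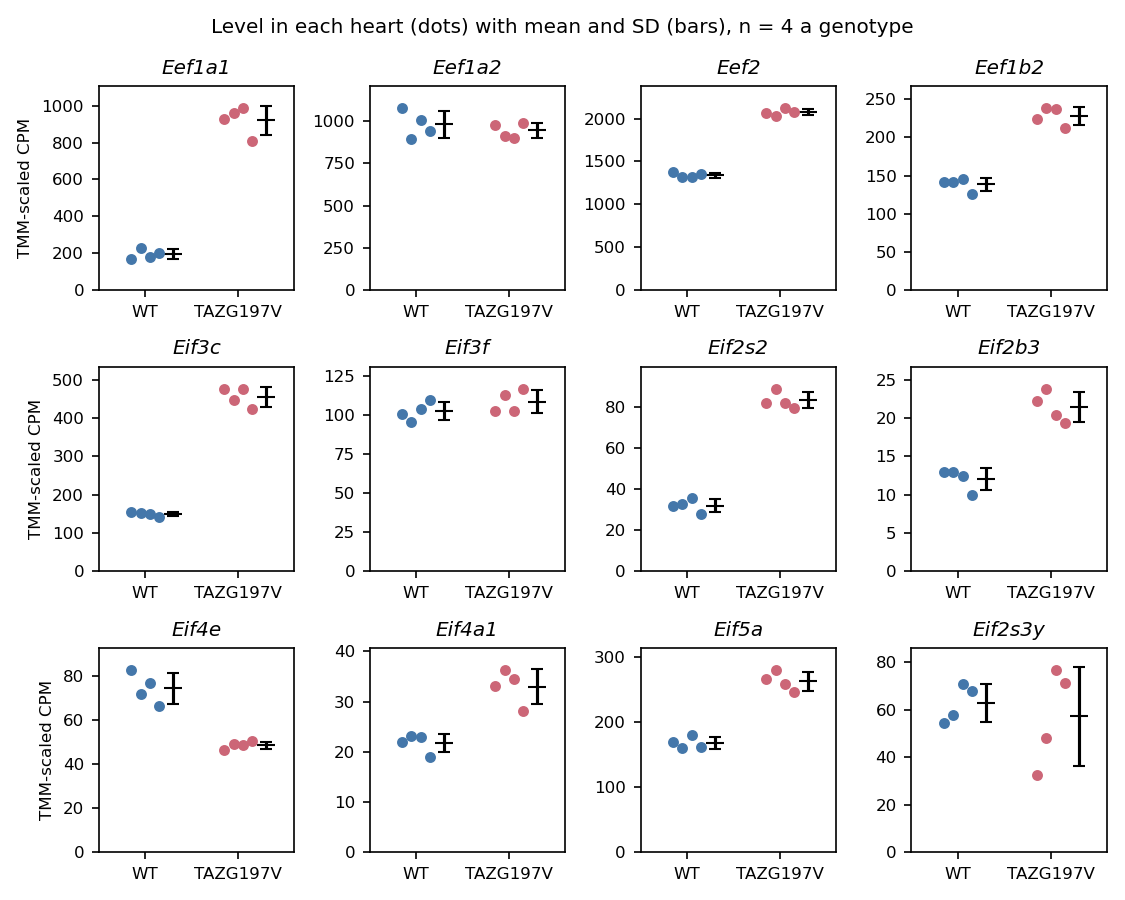
Level in TMM-scaled CPM (vertical axis, from 0) of 12 factors in each WT heart (blue) and each TAZG197V heart (red), with the mean and SD of each genotype in black (n = 4). Genotypes are apart for 9 of the 12, overlap for Eef1a2, Eif3f and Eif2s3y, and for Eif4e the TAZG197V hearts are the lower ones.

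The eIF4 group carries the mRNA: eIF4E binds its cap, eIF4G is the scaffold, and eIF4A unwinds the leader with the help of eIF4B or eIF4H. Directions were mixed here, with 4 of 12 called higher, 2 lower, 6 not called and a median log2 fold change of -0.01. Among all 12357 genes, 22.5% were called higher and 18.4% lower, with a median of 0.0028. Such a mix is thus not particular to this group. Eif4e (chromosome 3, 138526179 to 138559696, plus strand, mm10) was at 82.6, 71.7, 76.5 and 66.3 CPM in the WT hearts and at 46.3, 49, 48.8 and 50.2 CPM in the TAZG197V hearts. Every TAZG197V heart lay below every WT heart, and the log2 fold change was -0.61 ± 0.077 (SE, edgeR adjusted p = 0.000604). It was called lower in all 18 other fits, which gave log2 fold changes from -0.68 to -0.56. Its promoter held the E-box printed above, like those of Eef2, Eif4a1 and Eif3k. Eif4e3, a cap-binding paralogue, fell from 53.9 ± 0.957 to 46.2 ± 2.59 CPM, with a log2 fold change of -0.22 ± 0.061 (edgeR adjusted p = 0.0218). Its call was made in 15 of 17 other fits. It was lost without WT 1 (edgeR adjusted p = 0.0682) and without TAZG197V 3 (log2 fold change -0.18). Eif4e2, a cap-binding protein that represses translation, was higher in all 4 TAZG197V hearts, at 59, 61.5, 58.3 and 59.1 CPM against 51.9, 47.9, 56.3 and 51.1 CPM. Its adjusted p was 0.0349 (edgeR), but its log2 fold change of 0.18 did not pass 0.20, so it was not called. It was called higher in 2 of 17 other fits, without both number 4 libraries (log2 fold change 0.21, edgeR adjusted p = 0.0274) and without WT 3 (0.23).

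Among the helicase genes, Eif4a1 rose from 21.7 ± 1.87 to 33 ± 3.5 CPM (SD, n = 4 each), with a log2 fold change of 0.61 ± 0.057 (edgeR adjusted p = 0.000136). Its paralogue Eif4a2 was far more abundant, at 285, 273, 293 and 284 CPM in WT and 277, 267, 253 and 277 CPM in TAZG197V hearts, and was not called. Of the Eif4a1 windows, 28.4% were shared with other genes. The helicase cofactors Eif4b and Eif4h rose from 197 ± 11.6 to 278 ± 6.84 and from 147 ± 2.55 to 178 ± 7.73 CPM, with log2 fold changes of 0.52 and 0.29. Eif4a3, a helicase of the exon junction complex, was not called, at 26 and 25.7 CPM. The scaffold gene Eif4g1 was at 558, 490.5, 578 and 519.8 CPM in WT and 496, 472, 481 and 483 CPM in TAZG197V hearts, and its log2 fold change of -0.16 ± 0.066 was not called (edgeR adjusted p = 0.0827). Eif4g2 encodes a related scaffold that lacks the eIF4E site and serves cap-independent initiation. It was the most abundant transcript of the group, at 1189.9, 1152, 1162 and 1201 CPM in WT and 1529, 1448, 1526 and 1449.8 CPM in TAZG197V hearts, and it was called higher with a log2 fold change of 0.33 ± 0.064 (edgeR adjusted p = 0.0045). Neither Eif4g3, a further scaffold paralogue, nor Eif4enif1, the eIF4E transporter, was called, with log2 fold changes of -0.0035 and -0.08.

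eIF5A carries the modified residue hypusine and helps ribosomes that stall, and eIF6 keeps free large subunits from joining. All 3 genes of this group were called higher. Eif5a was at 169.9, 159.7, 181 and 162 CPM in WT and 266, 280.1, 258 and 246 CPM in TAZG197V hearts, with no overlap and a log2 fold change of 0.63 ± 0.056 (SE, edgeR adjusted p = 0.000105). Eif6 rose from 23.7 ± 1.11 to 35.5 ± 2.42 CPM, by 0.59 on the log2 scale. Eif5a2, the scarce paralogue of Eif5a, was at 2.2, 3.82, 2.33 and 2.86 CPM in WT and 3.67, 4.05, 3.03 and 4.47 CPM in TAZG197V hearts. Its groups overlapped, since WT 2 lay above TAZG197V 1 and 3, and it was called in 4 of 17 other fits, not in the one without both number 4 libraries.

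The elongation factors held the largest change of all 57 genes. eEF1A brings aminoacyl-tRNA to the ribosome, and Eef1a1 encodes its widespread form (chromosome 9, 78478449 to 78489151, minus strand, mm10). Eef1a1 was at 172, 229.9, 181 and 201 CPM in WT 1 to WT 4 and at 927, 961, 987 and 808 CPM in TAZG197V 1 to TAZG197V 4. The highest WT heart was WT 2. The lowest TAZG197V heart was above 3 times the highest WT heart, the ratio of means was 4.7, and the log2 fold change was 2.25 ± 0.106 (SE, edgeR adjusted p = 4.04e-06). Eef1a2, the form of adult muscle and neurons, was at 1077, 897, 1008 and 941 CPM in WT and 977, 912, 900.1 and 990.0 CPM in TAZG197V hearts, all of them within the WT range. Its log2 fold change was -0.06 ± 0.081, and it was not called (edgeR adjusted p = 0.56). Of the 50-base windows of Eef1a1, 40.4% occur in 21 other genes, so its level is uncertain. Counts were looked up only for the 3 copies that share the most windows, and Gm13456 had the most of these. It was at 1.06 ± 0.245 CPM in WT and 5.38 ± 0.629 CPM in TAZG197V hearts (SD, n = 4 each). Reads of Eef1a1 and of this copy cannot be told apart where the sequences match.

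Eef2, the factor that translocates the ribosome, had the highest CPM of the 57 transcripts. Per kilobase of exon, Eef1a2 lay above it in WT hearts, at 471 against 403 CPM, and below it in TAZG197V hearts, at 453 against 624 CPM. Eef2 was read at 1375, 1318, 1316 and 1350.1 CPM in WT and 2066, 2034, 2123 and 2074 CPM in TAZG197V hearts. The spread within each genotype was small beside the gap, and the log2 fold change was 0.63 ± 0.065 (SE, edgeR adjusted p = 0.000224). The eEF1B complex recharges eEF1A with GTP, and its 3 subunits were all called higher. Eef1b2 rose from 139 ± 8.79 to 228 ± 12.1 CPM, Eef1d from 103 ± 1.64 to 134 ± 2.3 CPM and Eef1g from 26.5 ± 2.38 to 33.4 ± 2.73 CPM, with log2 fold changes of 0.72, 0.39 and 0.33. For Eef1g, 44.2% of windows were found in other genes, so its level is uncertain. Eef1e1 encodes a small protein of the multi-tRNA-synthetase complex. It was at 9.81, 9.26, 10.0 and 9.29 CPM in WT and 19.3, 20.3, 17.1 and 15.5 CPM in TAZG197V hearts, with a log2 fold change of 0.90 ± 0.082 (edgeR adjusted p = 0.000125).

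Of the 5 enzymes that modify elongation factors, 3 were called higher and 0 lower. Eef2k, the kinase that slows elongation by phosphorylating eEF2, was at 44.2, 40.6, 32.1 and 38.4 CPM in WT and 45.4, 47.2, 47.3 and 46.2 CPM in TAZG197V hearts. Its log2 fold change was 0.28 ± 0.094, with an edgeR adjusted p of 0.0469, and the call was made in 4 of 17 other fits, not in the one without both number 4 libraries. Eef2kmt, which methylates eEF2, rose from 8.39 ± 1.01 to 13.6 ± 1.66 CPM, by 0.69 on the log2 scale. Eef1akmt4, a methyltransferase of eEF1A, was at 1.25, 1.18, 1.94 and 1.16 CPM in WT and 3.71, 5.53, 3.81 and 3.01 CPM in TAZG197V hearts. The groups did not overlap, and the log2 fold change was 1.49 ± 0.204, but 31.7% of its exon bases overlap other genes, among them Alg3. Alg3 rose with it, from 7.69 ± 0.322 to 9.72 ± 0.205 CPM. The methyltransferase genes Eef1akmt1 and Eef1akmt2 were not called, with log2 fold changes of 0.19 and 0.10.

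Where a factor has paralogues, the level of 1 over the other, per kilobase of exon, was compared between genotypes for 7 pairs. An exact permutation test over the 70 splits of the 8 hearts was used, two-sided, whose smallest possible p is 0.0286, with Benjamini-Hochberg adjustment over the 7 pairs. The ratio of Eef1a2 to Eef1a1 was 7.48, 4.67, 6.67 and 5.61 in WT 1 to WT 4 and 1.26, 1.14, 1.09 and 1.46 in TAZG197V 1 to TAZG197V 4. Its mean went from 6.11 ± 1.23 to 1.24 ± 0.167 (SD), a log2 difference of -2.29 with no overlap (exact p = 0.0286, adjusted 0.05). Adult WT hearts thus read Eef1a2 well above Eef1a1 per length, and TAZG197V hearts read both at nearly the same level, with the shared windows of Eef1a1 given above. The ratio of Eif4a2 to Eif4a1 was 10.6, 9.57, 10.4 and 12.1 in WT and 6.8, 5.98, 5.95 and 8.01 in TAZG197V hearts, a log2 difference of -0.68 (exact p = 0.0286, adjusted 0.05). The ratio of Eif4e2 to Eif4e moved the other way, from 0.503, 0.535, 0.59 and 0.618 in WT to 1.02, 1.01, 0.958 and 0.943 in TAZG197V hearts. In these units the repressor was at 0.562 of the level of Eif4e in WT hearts and nearly equal to it in TAZG197V hearts, a log2 difference of 0.81 (exact p = 0.0286, adjusted 0.05). The ratio of Eif1b to Eif1 fell from 0.627 ± 0.0391 to 0.494 ± 0.0232, also with no overlap (exact p = 0.0286, adjusted 0.05). These 4 pairs reached the smallest p that the test can give, and their adjusted p is at 0.05, not under it. The pairs were chosen with earlier results of these data known. Each of these 4 holds a factor called above with no overlap, namely Eef1a1, Eif4a1, Eif4e or Eif1. The test therefore adds no separate support for a change. The splits were not kept within lanes. When they were, 36 were possible, the smallest possible p was 0.0556, and the 4 pairs were at it, as was Eif2s3y over Eif2s3x. Within lane 7 and lane 8, their log2 differences were -2.30 and -2.27 for Eef1a2 over Eef1a1, -0.66 and -0.70 for Eif4a2 over Eif4a1, 0.97 and 0.65 for Eif4e2 over Eif4e, and -0.31 and -0.37 for Eif1b over Eif1.

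The other 3 pairs overlapped between genotypes. Eif2s3y over Eif2s3x was 9.3 ± 1.84 in WT and 6.13 ± 1.94 in TAZG197V hearts (exact p = 0.0857, adjusted 0.12). Eif4g3 over Eif4g1 was 0.0919 ± 0.0109 and 0.103 ± 0.00384 (exact p = 0.143, adjusted 0.167). Eif5a2 was scarce beside Eif5a in both, at 0.00796 ± 0.00246 and 0.00688 ± 0.00128 (exact p = 0.571, adjusted the same).

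**Figure D4:**
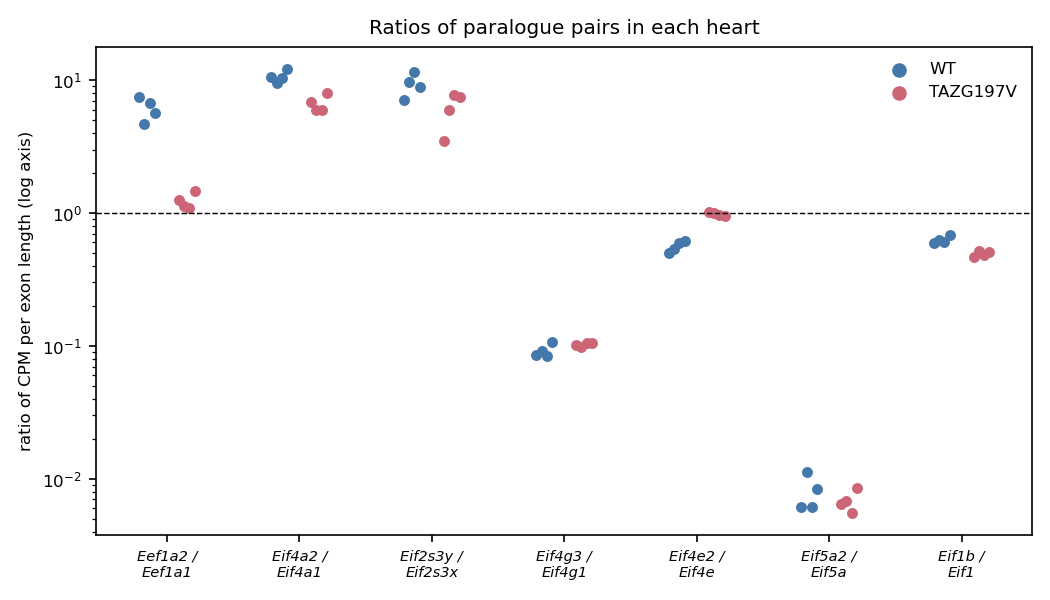
Ratio of 2 paralogues per exon length (vertical log axis, dashed line at equal levels) in each WT heart (blue) and each TAZG197V heart (red) for 7 pairs. Eef1a2 over Eef1a1 comes down to between 1.09 and 1.46 in TAZG197V hearts from between 4.67 and 7.48 in WT hearts, and Eif4e2 over Eif4e rises to the line.

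A list of 42 further translation genes, grouped by function, was tested beside the factors. Of these, 18 were called higher and 3 lower, where 22.5% and 18.4% of the 12357 genes were. The median log2 fold change of the list was 0.18. Among termination and recycling genes, 6 of 9 were called higher and 0 lower. Etf1, which releases the finished chain at stop codons, rose from 129 ± 7.86 to 199 ± 13.8 CPM. Abce1, which splits ribosomes, rose from 80.0 ± 3.49 to 117 ± 8.79 CPM, and Hbs1l, a ribosome rescue factor, from 52.1 ± 6.41 to 82 ± 1.65 CPM. Their log2 fold changes were 0.61, 0.55 and 0.63.

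Of 9 enzymes that add hypusine to eIF5A or diphthamide to eEF2, 6 were called higher and 0 lower, beside 22.5% and 18.4% of the 12357 genes. Dph5 and Dph3 act in the synthesis of diphthamide on eEF2. Dph5 was at 6.39, 5.52, 6.37 and 5.4 CPM in WT and 13.5, 14.4, 12.8 and 9.98 CPM in TAZG197V hearts, with a log2 fold change of 1.08 ± 0.087 (edgeR adjusted p = 6.48e-05). Dph3 rose from 29.6 ± 3.11 to 41.1 ± 2.71 CPM, by 0.50 on the log2 scale. The hypusine enzymes of eIF5A, Dhps and Dohh, changed by 0.43 and 0.46 on the log2 scale. Mknk1, a kinase of eIF4E, was called higher. It was at 19.2, 18.3, 19.1 and 21.9 CPM in WT and 45.4, 41.8, 42.9 and 28.6 CPM in TAZG197V hearts, a log2 fold change of 0.96 ± 0.108 (edgeR adjusted p = 0.000323), with TAZG197V 4 the lowest of its group. Pabpc4, a poly(A)-binding protein, and Eefsec, the elongation factor of selenocysteine, changed by 0.70 and 0.50. Of 7 poly(A)-binding genes, 1 was called higher and 1 lower, beside the same 22.5% and 18.4% of all genes.

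Factors of translation inside mitochondria, encoded by other nuclear genes, were listed apart. Of 10 such genes, 1 was called higher, 2 were called lower and 7 were not called, and the median log2 fold change was -0.09. These shares were not tested against those of the 57 factors. Of the 12357 genes, 22.5% were called higher and 18.4% lower. Tufm, the mitochondrial counterpart of eEF1A, fell from 21.2 ± 1.61 to 16.4 ± 1.1 CPM, and Mtif2, the mitochondrial initiation factor, from 54.2 ± 6.02 to 45 ± 3.68 CPM, where TAZG197V 1 lay just above WT 2. Mtrf1, a mitochondrial release factor, rose from 11.4 ± 1.37 to 14.3 ± 1.37 CPM, with no overlap. These log2 fold changes were -0.37, -0.29 and 0.33.

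Cytosolic ribosomal protein genes and aminoacyl-tRNA synthetase genes serve the same process. Of 69 ribosomal protein genes, 61 were called higher and 1 lower, and their median log2 fold change was 0.71. Of 20 cytosolic synthetase genes, 18 were called higher and 0 lower, with a median of 1.44. Among all 12357 genes, 22.5% were called higher and 18.4% lower. The 57 factors, with 42 higher and a median of 0.39, were compared with these lists by counts and medians alone, and no test of the difference was made.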

How the data were processed

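RNA from heart pieces of 4 WT and 4 TAZG197V mice was sequenced on an Illumina HiSeq as 50-base single-end reads. According to the methods and the submitters' processing notes, the authors used bcl2fastq 2.20.0, FastQC 0.11.9, STAR 2.7.3a on mm10 with at most 2 mismatches, and featureCounts of Subread 2.0.0 over exons. What the authors deposited are raw counts for each Ensembl gene ID. Strand setting, multi-mapping rule and annotation release are not given in the sources used here. Each file also held 92 spike-in rows, all at 0, which were left out.

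Symbols were taken from GENCODE M21 for 55230 gene IDs, and 241 had none. Counts were fitted in R 4.3.3 with edgeR 4.0.16 after filterByExpr (15084 genes) and TMM scaling, with 2 surrogate variables of svaseq (sva 3.50.0, seed 1) as covariates. The two-sided quasi-likelihood F-test was adjusted by Benjamini-Hochberg over the 15084 genes. Levels are CPM, and the SE is the log2 fold change over the square root of F. The procedure was tested on simulated counts with no lane effect, no outlying library and the same extra spread for every gene. That test does not show how the fit behaves where such features are present, as here. Counting error is largest for the factors with the fewest counts, Eef1akmt4 and Eif5a2. Replicates are separate mice by their labels.

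The factors, lists, pairs and naming rule were chosen with earlier results of these data known. Named were all called factors, the most abundant of each role, the paralogue pairs, factors nearest the count limit, and other translation genes called beyond 0.5 on the log2 scale. Other named genes were chosen after their values were seen. Alternatives were DESeq2 1.42.0, other covariates, scaling, filters and fold limit, and omission of libraries. Within-lane values and splits within lanes were added after seeing the data. Within numbers, deviations from the group means correlated at 0.277, 0.0436, 0.280 and 0.416, 1 of them under 0.1. Lane is shared by a pair of numbers, and no label says that a number marks a litter or day, so the numbers were not taken to pair the mice. No replicate was a copy of another.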

Additional observations from a re-analysis of the deposited data

Results flagged for a closer look

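In 7 of 128 sets of 4 hearts, 1 heart stood apart from the other 3, with a gap to its neighbour above Dixon's critical share of the set's whole range, where chance gives about 1 in 20, or 6.4 of 128. In WT hearts, WT 3 was high for Eef1akmt4 (gap 0.884 of the range, 1.94 CPM against 1.16 to 1.25) and for Eif3b (0.874, 114 CPM against 106 to 107). WT 4 was low for Eef1b2 (0.848, 126 CPM against 142 to 145) and for Eif3h (0.896, 86.3 CPM against 106 to 108). WT 2 was low for Eif4enif1 (0.926, 43.0 CPM against 45.5 to 45.7). In TAZG197V hearts, TAZG197V 2 was low for Eif4g3 (0.917, 69.6 CPM against 76.8 to 77.5) and high for Eif6 (0.835, 39.1 CPM against 33.9 to 34.8). For the 5 called factors among these, the genotypes did not overlap.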

How the results depend on the processing

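The number of factors called higher, 42, was 39 with DESeq2 and with lane as covariate, 40 with no or 1 surrogate variable, 41 with DESeq2 size factors, 42 without mitochondrially encoded genes, 38 without the low-count filter and 34 to 39 when 1 library was left out. With the replicate number as a block in place of the surrogate variables it was 39, with 2 called lower. At a fold change cut-off of 1.5 it was 16, with 1 called lower, Eif4e. The 2 called lower became 1 to 2 when 1 library was left out, 1 without WT 1 and 1 without TAZG197V 3, with Eif4e3 lost in both. The median log2 fold change stayed between 0.371 and 0.403. Of the 44 calls, 33 were made in all 17 alternatives other than the fold cut-off. Least often called were Eef2k and Eif5a2 (4 of 17), Eif3j1 (6), Eif2b1 and Eif3m (10) and Eif2s3x (13). Of factors not called, 5 changed sign in some fits and none of them was called there. Eif4g3 was at 0.0158 without surrogate variables, 0.0161 with 1, 0.0175 with lane, 0.0186 with the block, 0.0491 without the filter, and 0.0687 without both number 4 libraries. With 1 library left out, it ranged from -0.0281 to 0.0762, Eif4a3 from -0.0481 to 0.0279, Eif5b from -0.0883 to 0.0090, Eif1b from -0.0119 to 0.0721 and Eif2s3y from -0.4115 to 0.0244. The causes were not tested. Counting depth limits Eef1akmt4 and Eif5a2 most, and shared sequence limits Eif3j1, Eef1g, Eef1a1, Eif3d and Eif2s3x.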

Other observations

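Eif2s3y, the Y-linked eIF2 gamma gene, was spread more widely than other Y-linked genes of these hearts. It ranged from 32.5 to 76.8 CPM over the 8 libraries, while Ddx3y ranged from 88.0 to 108 CPM, Kdm5d from 21.5 to 26.5 CPM and Uty from 29.5 to 33.7 CPM. All 4 libraries of lane 8 lay at 67.9 to 76.8 CPM for Eif2s3y, and all 4 of lane 7 at 32.5 to 57.8 CPM. Within lane 7 both TAZG197V hearts lay below both WT hearts (log2 -0.48), and within lane 8 both lay above them (log2 0.09). For Ddx3y, Kdm5d and Uty the lanes overlapped. The part of the lane in this was not tested.

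Pabpc1, the main cytosolic poly(A)-binding protein and a TOP mRNA, was at 51.4, 55.6, 55 and 276 CPM in WT 1 to WT 4 and at 69.9, 73.8, 65.4 and 75.3 CPM in TAZG197V 1 to TAZG197V 4. WT 4, the library in which haemoglobin genes took 5.00% of the counts, was the highest of the 8. Pabpc1 was not called over all 8 libraries (log2 fold change -0.43, edgeR adjusted p = 0.351), but it was called higher without both number 4 libraries, with a log2 fold change of 0.37 (edgeR adjusted p = 0.00448).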
